A study of Homo sapiens with 7 samples.

Results

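The 7 genes described here mark the epithelial and the mesenchymal state of a cell: CDH1 on the epithelial side, and CDH2, VIM, ZEB1, ZEB2, SNAI2 and TWIST1 on the mesenchymal side. They were chosen by name, and every peak that shared at least 1 bp with a gene or with the 20 kb on each side of it was counted for that gene by position alone. This gave 93 peaks out of 286998 in the whole series, 50 of them at CDH1 and 43 at the 6 mesenchymal genes. All data came from T-47D, an established luminal breast cancer cell line, grown in DMEM with serum, with no treatment named. Chromatin immunoprecipitation followed by sequencing was done for H3K4me2, H3K27ac, H3K36me3, H3K27me3, H2A.Z and H3K9me3, with 1 library for each and no replicates, and the input library was not analysed here. The files are lists of peak positions in hg19 without a height, so a peak is present or absent and the read depth behind it is unknown.

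E-cadherin, the product of CDH1, holds epithelial cells together at adherens junctions. In an epithelial to mesenchymal transition its loss is accompanied by a gain of N-cadherin (CDH2) and of the intermediate filament protein vimentin (VIM). ZEB1, ZEB2, SNAI2 (also called Slug) and TWIST1 are transcription factors that repress CDH1 through E-boxes in its promoter or drive the mesenchymal programme. H3K4me2 and H3K27ac mark active promoters and enhancers, H3K36me3 is laid down along transcribed gene bodies, and H3K27me3 is the mark of Polycomb repression. H2A.Z is usually found at promoters and enhancers together with active marks, and H3K9me3 in heterochromatin without them. In the whole labelled H3K9me3 list, however, 35.3% of peaks shared bp with H3K4me2 and 30.4% with H3K27ac, and in the whole labelled H2A.Z list 0.305% and 0.046% did. Around the 7 genes it was 4 and 3 of the 6 labelled H3K9me3 peaks, and none of the 5 labelled H2A.Z peaks, of which the one at CDH2 lay 819 bp from the gene start. Both are therefore called the labelled H2A.Z and the labelled H3K9me3 lists, and what is said of them holds for the lists under those labels.

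CDH1 (NCBI gene 999, chr16:68771195-68869444, plus strand) was dense in H3K4me2, H3K27ac and H3K36me3 and held no H3K27me3 peak. Its window of 138.2 kb held 16 H3K4me2, 14 H3K27ac and 19 H3K36me3 peaks, 1 labelled H3K9me3 peak, and no labelled H2A.Z peak. Windows of this length laid end to end over the analysed genome held 3.24, 1.58 and 2.66 peaks of the first 3 lists on average, and those of chromosome 16 held 3.96, 2.9 and 4.07. A single peak is common at this length: 74.5% of the genome's windows held at least 1 H3K4me2 peak, 45.1% an H3K27ac peak and 35.4% an H3K36me3 peak. For the lists missing at CDH1 the shares were 39.2% for H3K27me3 and 41.7% for labelled H2A.Z, so their absence alone is shared with most windows, and 48.9% held a labelled H3K9me3 peak. The nearest H3K27me3 peak lay 724 kb from the CDH1 start, and the nearest labelled H2A.Z peak 167 kb.

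By covered sequence, H3K36me3 peaks took up 31.8% of the CDH1 window, 8.78 times the 3.63% that the list covered of the analysed genome. H3K4me2 covered 11.6% against 1.9% of the genome, and H3K27ac 9.78% against 1.29%, which were 6.13 and 7.58 times the genome's share. That share is taken over all analysed sequence and not over genes, so how CDH1 compares with other genes of its length was not tested. H3K4me2, H3K27ac and H3K36me3 did not spread evenly along the gene. With CDH1 divided into 3 equal parts of 32.8 kb, H3K27ac covered 9.7% of the part next to the start, 22.8% of the middle part and none of the last. H3K4me2 covered 14.8%, 17.3% and none in the same order. H3K36me3 covered 29.8%, 17.5% and 83%, and in the last part it was a single peak.

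That peak (chr16:68842248-68870767) was 28.5 kb wide. Only 169 of the 52558 H3K36me3 peaks were as wide or wider. It covered the last 27.7% of CDH1 and ended 1.32 kb past the annotated end, and no peak of another list touched it. The other 18 H3K36me3 peaks were 0.501 kb to 1.81 kb wide and lay from 2.86 to 57.9 kb after the start. H3K4me2 and H3K27ac peaks were interleaved with them: 6 of the 16 H3K4me2 peaks shared between 104 bp and 0.501 kb with H3K36me3, and 2 of the 14 H3K27ac peaks shared 331 and 255 bp. The shares of the whole lists that overlap H3K36me3 were not computed, so whether these counts are unusual is unknown.

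**Figure D1:**
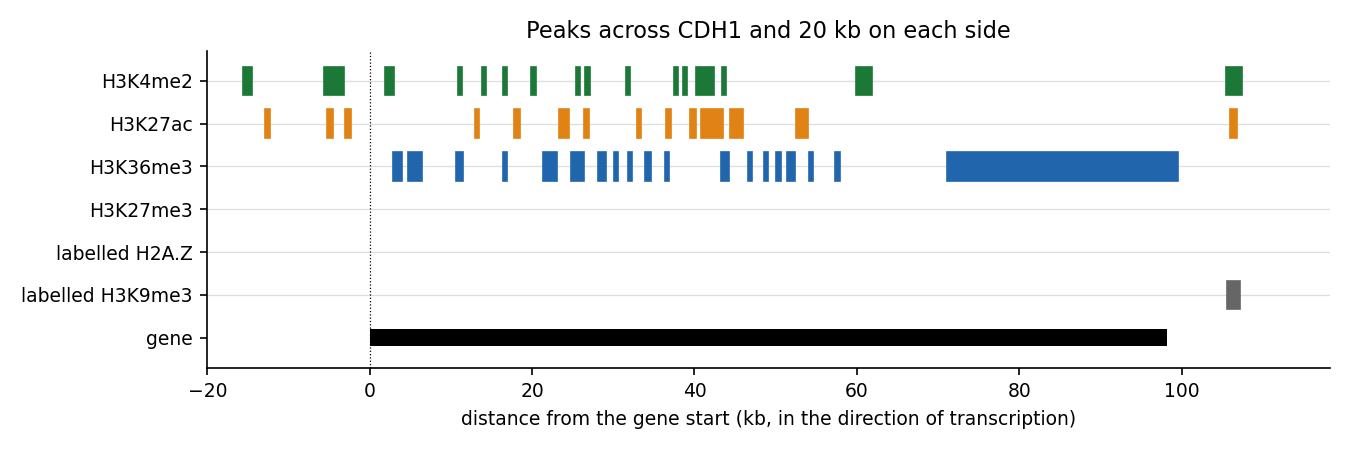
Peaks of the 6 lists across CDH1 and 20 kb on each side, by distance from the gene start in kb; each bar is 1 peak drawn to scale, and the black bar is the gene. H3K4me2 and H3K27ac peaks lie upstream, in the first 61.9 kb of the gene and once each beyond its end, a 28.5 kb H3K36me3 peak covers its end, and the H3K27me3 and labelled H2A.Z rows are empty.

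The widest H3K27ac peak at CDH1 (chr16:68811941-68814711, 2.77 kb) lay inside the gene, 40.7 kb after the start. It shared 1700 bp with H3K4me2, of which the peak at chr16:68811394-68813553 contributed 1613 bp, and its far end touched an H3K36me3 peak over 255 bp. H3K27ac peaks of 1.52 kb and 1.42 kb followed 44.4 and 52.5 kb after the start, with no peak of another list on them. The widest H3K4me2 peak (chr16:68765532-68768085, 2.55 kb) lay upstream, ending 3.11 kb before the start, and held a whole H3K27ac peak of 768 bp. An H3K4me2 peak of 2.01 kb stood alone 59.9 kb after the start. Of the H3K27ac peaks at CDH1, 4 of 14 shared bp with H3K4me2, and in all 7 windows 6 of 16. Over the whole H3K27ac list 48.8% did so.

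No list had a peak over the CDH1 start itself. A stretch of 4.18 kb (chr16:68768893-68773073) was free of all lists, between an H3K27ac peak ending 2.3 kb upstream and an H3K4me2 peak beginning 1.88 kb downstream. That H3K4me2 peak (chr16:68773074-68774160) met the first H3K36me3 peak of the gene over 104 bp. Signal too weak for the authors' peak calling would not appear in the lists.

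The only labelled H3K9me3 peak of the CDH1 window (chr16:68876845-68878336, 1.49 kb) lay outside the gene. It sat together with an H3K4me2 peak of 1.94 kb, which held all of it, and an H3K27ac peak of 786 bp, beginning 7.24 kb past the CDH1 end. The next protein-coding gene on that side in RefSeq (GRCh38.p14) is TANGO6. The distance of these peaks from TANGO6 was not measured. They are counted in the CDH1 window by position alone, and without the flanks CDH1 had no labelled H3K9me3 peak, 13 H3K4me2 and 10 H3K27ac peaks.

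Set against CDH1, the mesenchymal genes were poorer in H3K4me2, H3K27ac and H3K36me3. The windows of 2 of them, SNAI2 and TWIST1, were dense in H3K27me3. H3K36me3 had no peak in any of the 6 windows, where 21.5 to 46.6% of same-length windows of the genome held at least 1. Absence from any 1 of them was therefore the commoner state. H3K27ac had 2 peaks, 1 at VIM and 1 at ZEB2, beside 23.6 to 60.2% of same-length windows, so 2 of 6 is not unusual either. H3K4me2 had 9 peaks over 5 of the 6 windows, where, depending on the window's length, 46.1 to 86.4% of same-length windows of the genome held at least 1, so 5 of 6 is not unusual. H3K27me3 had 22 peaks with at least 1 in each window, beside 24.3 to 51% of same-length windows. Per 100 kb this was 11.6 H3K4me2 peaks at CDH1 against 1.09 in the 6 windows together, where the genome had 2.33. For H3K27ac it was 10.1 against 0.241, where the genome had 1.13. For H3K27me3 it was none against 2.66 per 100 kb, where the genome had 2.32. By covered sequence the 6 windows together were at 1.03 times the genome for H3K27me3. They were at 0.35, 0.139 and 0 times for H3K4me2, H3K27ac and H3K36me3, so in amount they lay below the genome for these lists. Single windows above the genome were TWIST1 for H3K4me2 (1.25 times) and VIM for H3K27ac (1.24 times). The median share covered in the 6 windows was 1.14% for H3K4me2 (range 0 to 2.37), 0 for H3K27ac (0 to 1.6) and 1.82% for H3K27me3 (0.188 to 15.6). All 6 windows lay below CDH1 in H3K4me2, H3K27ac and H3K36me3 and above it in H3K27me3. With labelled H3K9me3 the groups overlapped: CDH1 was at 1.08%, all of it from the peak past the gene's end, 4 mesenchymal windows lay below it, and VIM (2.03%) and TWIST1 (1.19%) above. The contrast is 1 gene against 6 in the same libraries, and genes are not replicates, so no test was made.

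**Figure D2:**
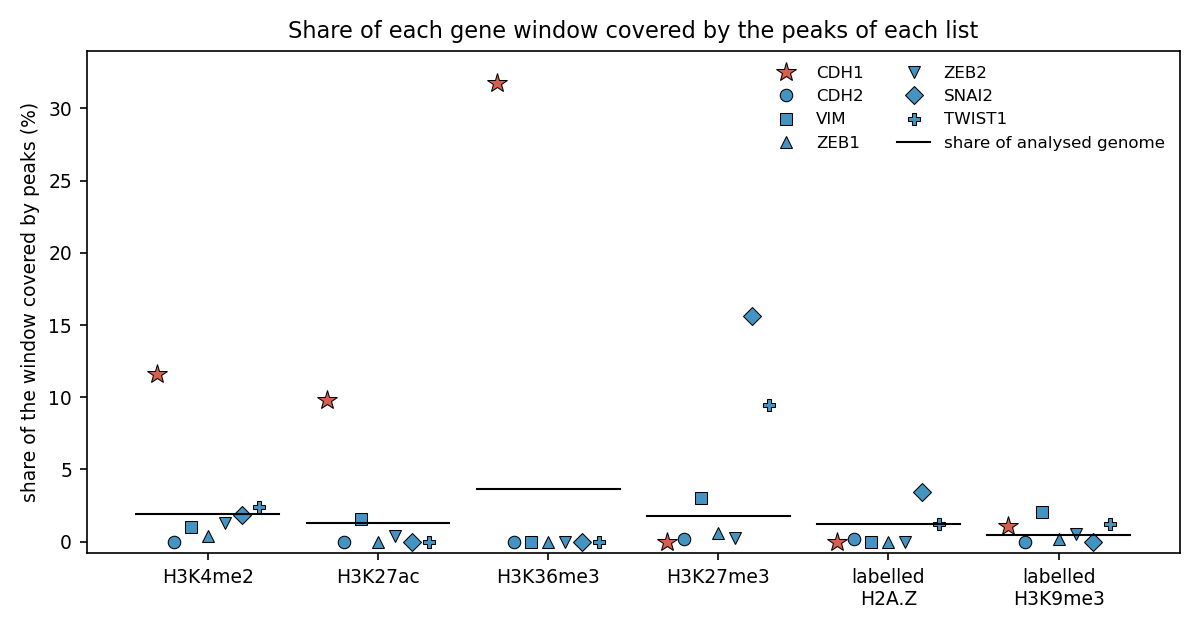
Share of each gene window (%) covered by the peaks of each list; each symbol is 1 gene, CDH1 as a star, and the black line is the share of the analysed genome that the list covers. CDH1 stands at 11.6, 9.78 and 31.8% for H3K4me2, H3K27ac and H3K36me3, above all 6 mesenchymal genes, while SNAI2 (15.6%) and TWIST1 (9.47%) are highest for H3K27me3.

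The 6 mesenchymal genes were not alike in H3K27me3. The windows of SNAI2 and TWIST1 were densely covered, at 8.96 and 5.42 times the genome's share of 1.75%. At TWIST1 all of this lay in the flanks, with no H3K27me3 peak in the gene itself. VIM followed at 1.74 times. ZEB1, ZEB2 and CDH2 were below the genome, at 0.343, 0.163 and 0.108 times. The H3K27me3 peaks wider than 0.501 kb, the commonest width in the lists, numbered 7 and all lay at SNAI2 and TWIST1. Exactly that width was found in 15 of the 22, beside 57.8% of the whole H3K27me3 list, so narrow peaks are usual for this list. When only H3K27me3 peaks wider than 0.501 kb were kept, 2 of the 6 mesenchymal windows held one instead of 6, so the presence of H3K27me3 at the other 4 genes rested on peaks of that commonest width.

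SNAI2 (gene 6591, chr8:49830239-49833999, minus strand), a zinc finger repressor of the Snail family, had 8 H3K27me3 peaks in a window of 43.8 kb. Same-length windows held 1.03 on average over the genome and 1.31 on chromosome 8. At least 1 such peak was found in 24.6% of the genome's windows and in 33.3% of those on chromosome 8. The peaks reached across the whole window, 5 beyond the gene's end, 1 in the gene and 2 upstream, and together covered 15.6% of it. The widest (chr8:49847933-49849281, 1.35 kb) lay 13.9 kb upstream, and the one in the gene (chr8:49831932-49833167, 1.24 kb) began 0.832 kb after the start and covered 32.9% of the gene.

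Next to the SNAI2 start stood the only H3K4me2 peak of its window (chr8:49834161-49834957, 797 bp), ending 162 bp before the start. It lay 993 bp from the H3K27me3 peak in the gene, and the lists shared no bp there. At this window length 46.9% of the genome's windows held H3K4me2. The 3 labelled H2A.Z peaks, each 0.501 kb, lay 8.16 kb after the start and 8.46 and 17.8 kb before it, where 25.3% of windows held one over the genome and 43.7% on chromosome 8. H3K27ac, H3K36me3 and labelled H3K9me3 had no peak, against 24.1, 21.8 and 23.5% of windows with one. All 12 SNAI2 peaks stood alone, sharing no bp with another list, which over the genome held for 86.4% of H3K27me3, 81.9% of labelled H2A.Z and 65.4% of H3K4me2 peaks. The counts at this short gene moved with the flank: H3K27me3 had 4 peaks with flanks of 10 kb, 12 with 50 kb and 1 without flanks, and labelled H2A.Z had 2, 13 and 0.

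TWIST1 (gene 7291, chr7:19155091-19157295, minus strand), a basic helix-loop-helix factor, resembled SNAI2 in H3K27me3, with 6 peaks in 42.2 kb. The mean of same-length windows was 0.997 over the genome and 1.32 on chromosome 7. At least 1 was found in 24.3% of windows over the genome and in 29.8% on chromosome 7. One peak (chr7:19157942-19158442) lay 647 bp before the start, none lay in the gene, and 5 lay beyond its end, from 3.84 to 20.1 kb after the start. Beyond the upstream peak the window was empty of all lists for 18.9 kb. H3K27me3 had 5 peaks with flanks of 10 kb, 10 with 50 kb and none without flanks, and labelled H2A.Z, with 1 peak here, had 1, 7 and 0.

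TWIST1 also held the only place in the 7 windows where H3K4me2 and H3K27me3 shared bases. There an H3K4me2 peak (chr7:19146920-19147420), 9.88 kb after the start and past the gene's end, lay wholly within an H3K27me3 peak of 1.06 kb (chr7:19146598-19147654). A labelled H3K9me3 peak of 0.501 kb lay in the same H3K27me3 peak and shared 423 bp with the H3K4me2 peak. Of all H3K4me2 peaks 1.19% shared bp with H3K27me3, and in the 7 windows it was 1 of 25. A labelled H2A.Z peak met another of the H3K27me3 peaks over 68 bp. The shares of windows with a peak were 46.1% for H3K4me2 (2 peaks at TWIST1), 24.9% for labelled H2A.Z (1 peak) and 22.9% for labelled H3K9me3 (1 peak). They were 23.6% for H3K27ac and 21.5% for H3K36me3, which had none there.

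**Figure D3:**
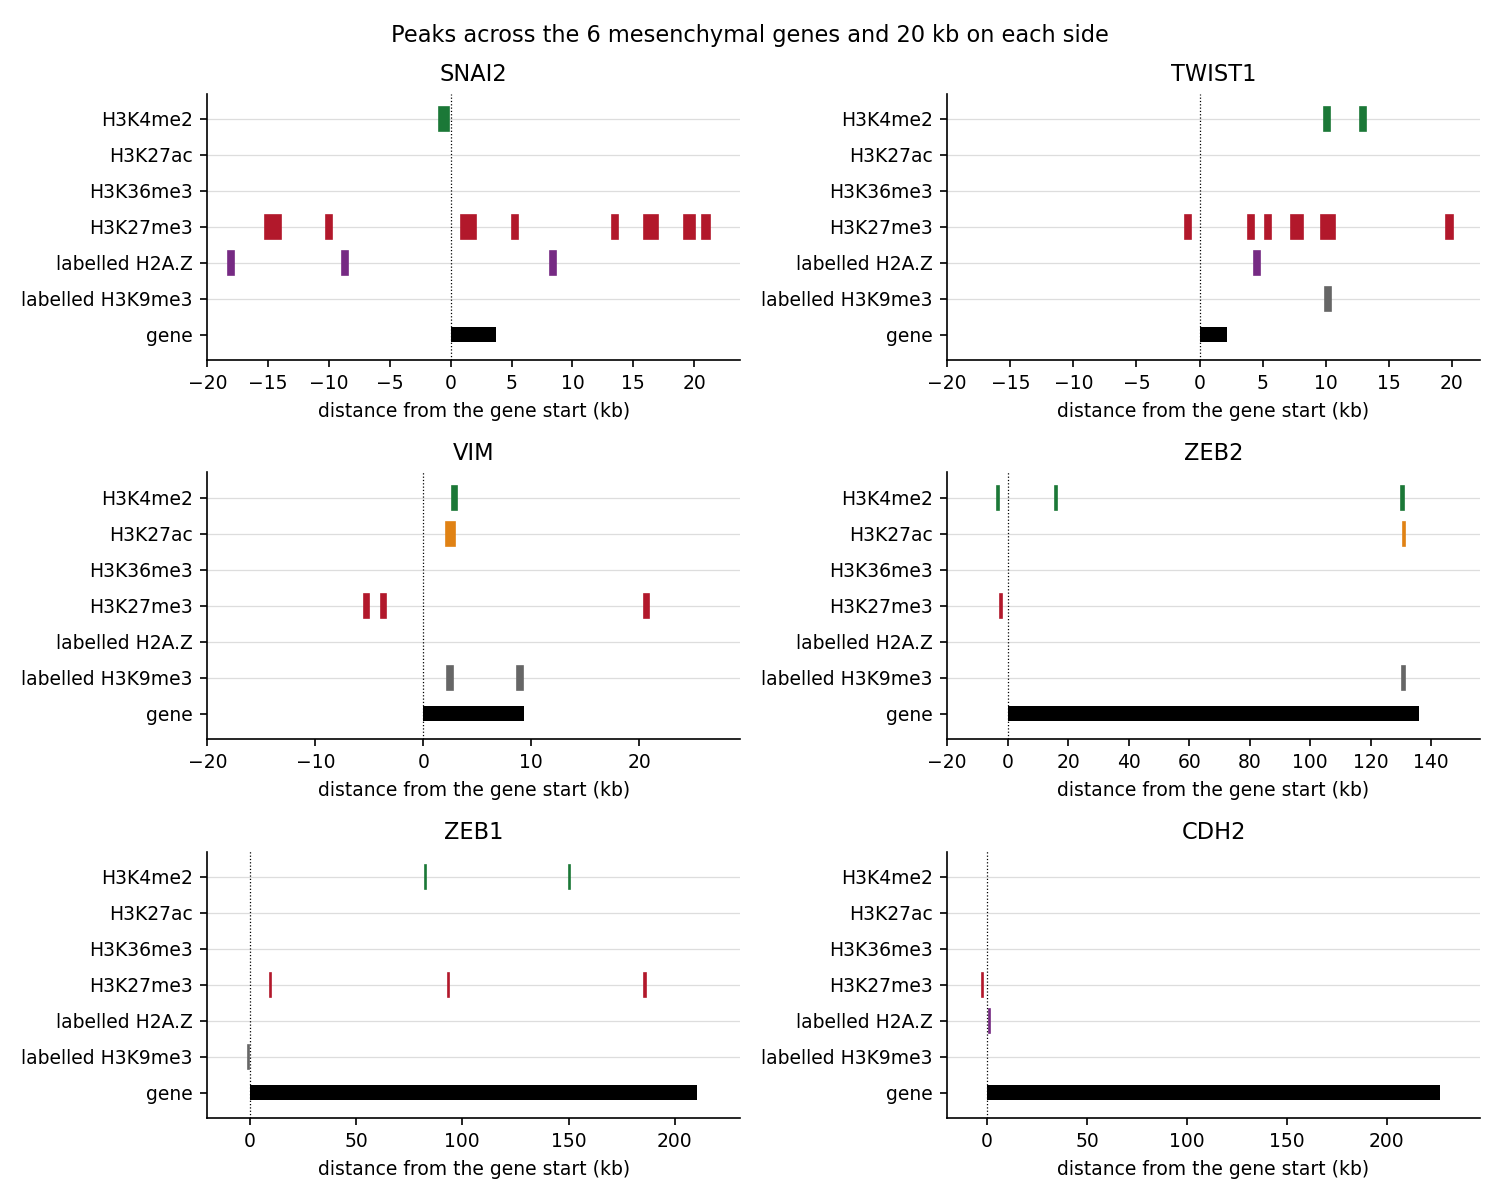
Peaks of the 6 lists across each mesenchymal gene and 20 kb on each side, by distance from the gene start in kb in the direction of transcription; bars are peaks to scale, the black bar is the gene, and the horizontal scales differ between genes. SNAI2 and TWIST1 hold 8 and 6 H3K27me3 peaks, VIM and ZEB2 each hold 1 place where H3K4me2, H3K27ac and labelled H3K9me3 meet, and CDH2 holds 2 peaks in all.

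VIM (gene 7431, chr10:17270258-17279592, plus strand) had both active marks inside the gene. An H3K27ac peak (chr10:17272389-17273176, 788 bp) began 2.13 kb after the start and shared 298 bp with an H3K4me2 peak of 0.501 kb (chr10:17272879-17273379). A labelled H3K9me3 peak (chr10:17272496-17272996) lay wholly within the H3K27ac peak, and a second lay alone 8.72 kb after the start. H3K27ac covered 8.44% of the gene and 1.6% of the window of 49.3 kb, which was 1.24 times the genome's share. H3K36me3 had no peak in the window, and its nearest was 162 kb away.

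The H3K27me3 peaks at VIM kept to the flanks, 2 of them upstream, 3.42 and 5.0 kb before the start, and 1 beyond the end, 20.4 kb after the start. Each was 0.501 kb wide, and the H3K4me2 peak was 6.04 kb from the nearest. Single peaks are common at this length: 50% of windows held H3K4me2, 26% H3K27ac, 25.8% H3K27me3 and 25.5% labelled H3K9me3. Labelled H2A.Z and H3K36me3, both absent, were found in 26.7 and 22.9%. With flanks of 50 kb, VIM had 6 labelled H2A.Z and 4 H3K4me2 peaks, and without flanks it had no H3K27me3 peak. The 3 H3K27me3 peaks stood beside a mean of 1.16 over the genome and 1.46 on chromosome 10, and the 2 labelled H3K9me3 peaks beside 0.368 and 0.362.

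ZEB2 (gene 9839, chr2:145141942-145277958, minus strand), a zinc finger homeobox repressor, had the same 3 lists together, but near the far end of the gene. H3K27ac (chr2:145146644-145147341, 698 bp), H3K4me2 (chr2:145146908-145147848, 941 bp) and labelled H3K9me3 (chr2:145146811-145147753, 943 bp) overlapped 130 to 131 kb after the start. The H3K4me2 and labelled H3K9me3 peaks shared 846 bp and the H3K27ac and H3K4me2 peaks 434 bp. At the other end, an H3K27me3 peak of 0.501 kb (chr2:145279934-145280434) lay 1.98 kb before the start. An H3K4me2 peak of 640 bp lay 470 bp further upstream of it, and the remaining H3K4me2 peak lay 15.6 kb into the gene. Between these and the far end, 114 kb held no peak of any list.

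In the ZEB2 window of 176 kb, H3K4me2 had 3 peaks, which is the mean on chromosome 2 (2.99) and below that of the genome (4.12). H3K27me3 had 1 peak against 1.28 on chromosome 2 and 4.11 over the genome. The labelled H2A.Z list was sparser still on this chromosome, with a mean of 0.31 against 3.32, so for both lists the genome-wide background overstates what windows there hold. Windows with at least 1 peak made up 79.4% for H3K4me2, 50.5% for H3K27ac, 43.1% for H3K27me3 and 54.6% for labelled H3K9me3. For H3K36me3 and labelled H2A.Z, absent at ZEB2, the shares were 39.1 and 46%, and on chromosome 2 they were 32.7 and 20.3%.

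ZEB1 (gene 6935, chr10:31608101-31818742, plus strand), the other member of that family, had 6 scattered peaks in 250.6 kb, each 0.501 kb wide and none sharing bp with another list, as 86.4% of H3K27me3, 65.4% of H3K4me2 and 42.6% of labelled H3K9me3 peaks over the genome. The 3 H3K27me3 peaks lay 9.65, 93.2 and 186 kb after the start, and the 2 H3K4me2 peaks 82.3 and 150 kb after it. Same-length windows of chromosome 10 held 7.35 and 6.06 peaks of these lists on average, so ZEB1 was poorer in both. The labelled H3K9me3 list had the peak nearest to the start (chr10:31607389-31607889), ending 212 bp before it. H3K27ac was absent from the window, with its nearest peak 263 kb from the start. The shares of windows with a peak were 85.5% for H3K4me2, 49.8% for H3K27me3 and 63.8% for labelled H3K9me3. They were 58.7% for H3K27ac, 44.9% for H3K36me3 and 52.9% for labelled H2A.Z, which had none here.

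CDH2 (gene 1000, chr18:25530930-25757445, minus strand) was the emptiest of the 7. Its window, the longest at 266.5 kb, held 2 peaks in all, where same-length windows held 27.5 over the genome and 10.9 on chromosome 18, summed over the 6 lists. Both lay near the start: a labelled H2A.Z peak (chr18:25756126-25756626) 819 bp inside the gene and an H3K27me3 peak (chr18:25759613-25760113) 2.17 kb upstream. The remaining 245 kb of the window towards and past the gene's end held no peak of any list. The lack of H3K4me2 set CDH2 apart from most windows, since 86.4% held at least 1 over the genome and 77.1% on chromosome 18. H3K27ac, H3K36me3 and labelled H3K9me3, also absent, were present in 60.2, 46.6 and 65.5% of windows. H3K27me3 and labelled H2A.Z were present in 51 and 53.7%, and on chromosome 18 in 37.9% each. The nearest H3K4me2 and H3K27ac peaks both lay 245 kb from the CDH2 start.

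**Figure D4:**
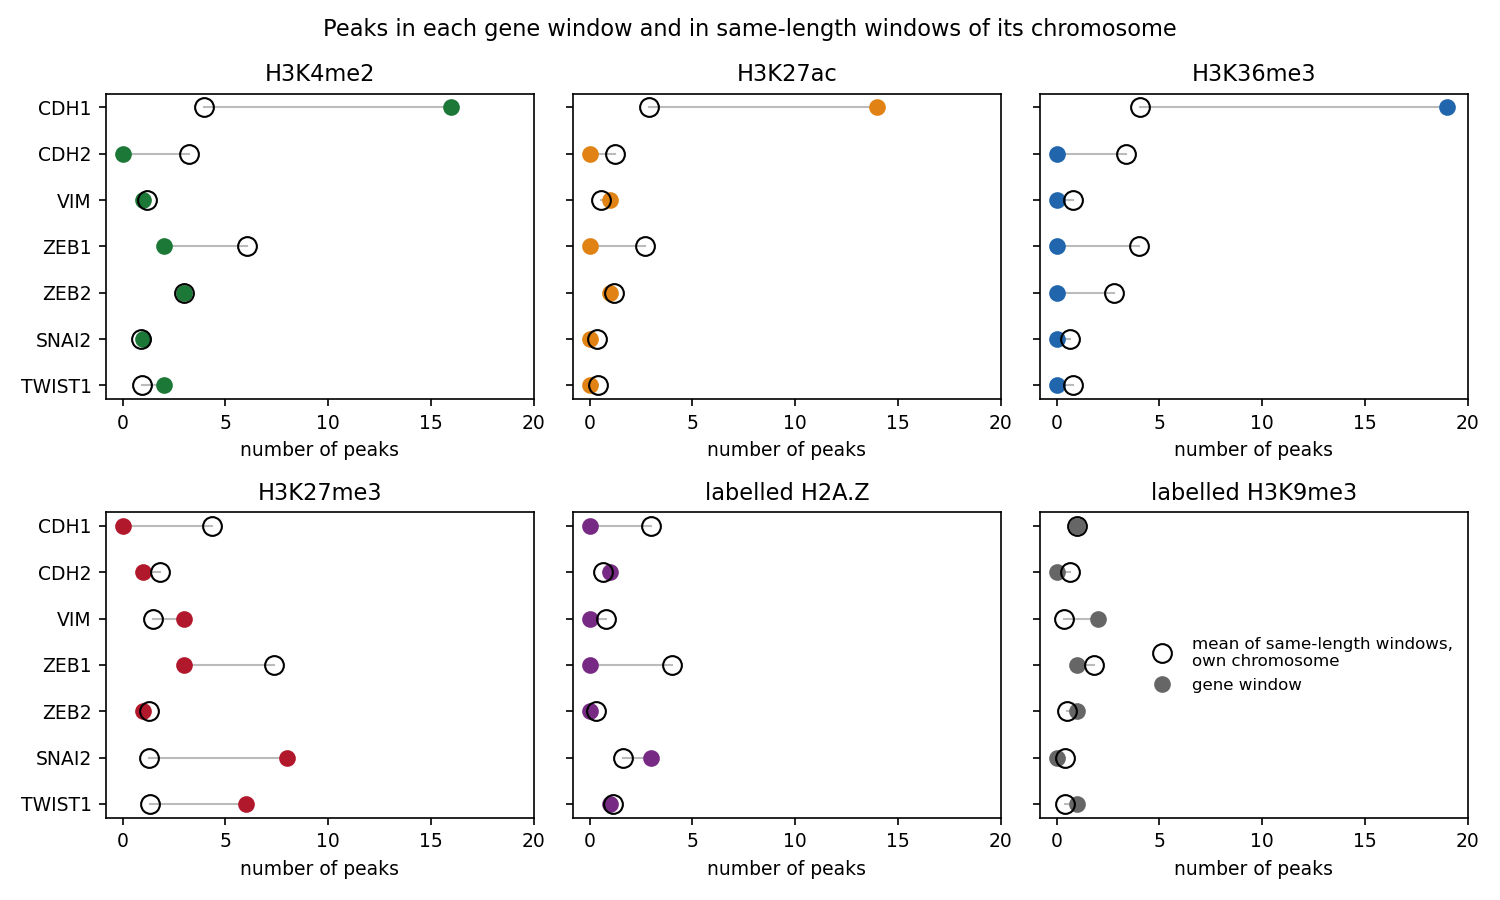
Number of peaks of each list in each gene window (filled) and the mean number in same-length windows of the same chromosome (open circle). CDH1 lies to the right of its chromosome for H3K4me2, H3K27ac and H3K36me3, SNAI2 (8 against 1.31) and TWIST1 (6 against 1.32) do so for H3K27me3, and ZEB1 and CDH2 lie to the left for these lists.

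The sequences upstream of 4 mesenchymal genes are shown because repressors of the ZEB and Snail families recognise the E-box letters CAGGTG, which read CACCTG on the other strand. They are the 250 bases before a RefSeq start (GRCh38.p14), 5′ to 3′ on the gene's strand, with E-boxes in capitals. Of the 7 genes 4 had an entry in the table used: CDH2, VIM, ZEB1 and ZEB2, and CDH1, SNAI2 and TWIST1 had none. RefSeq starts in this build may differ from the hg19 starts used for the peaks, and CDH2 has 2 entries and ZEB1 7. For CDH2 the upstream one of the 2 is printed, and for ZEB1 the one with most E-boxes, picked after they were counted.
CDH2 upstream sequence: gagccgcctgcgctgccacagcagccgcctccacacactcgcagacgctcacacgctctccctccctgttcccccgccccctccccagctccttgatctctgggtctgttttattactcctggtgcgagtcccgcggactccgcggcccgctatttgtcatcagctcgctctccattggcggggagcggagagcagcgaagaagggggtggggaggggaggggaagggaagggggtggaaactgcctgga
VIM upstream sequence: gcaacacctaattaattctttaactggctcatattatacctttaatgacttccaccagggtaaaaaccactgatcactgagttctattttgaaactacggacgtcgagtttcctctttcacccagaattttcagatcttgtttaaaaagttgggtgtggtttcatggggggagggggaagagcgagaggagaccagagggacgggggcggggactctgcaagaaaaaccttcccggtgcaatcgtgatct
ZEB2 upstream sequence: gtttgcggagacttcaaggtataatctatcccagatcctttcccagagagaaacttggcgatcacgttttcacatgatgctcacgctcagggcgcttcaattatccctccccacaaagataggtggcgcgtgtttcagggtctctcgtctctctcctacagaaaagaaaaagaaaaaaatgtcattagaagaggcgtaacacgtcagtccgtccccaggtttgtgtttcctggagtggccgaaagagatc
ZEB1 upstream sequence: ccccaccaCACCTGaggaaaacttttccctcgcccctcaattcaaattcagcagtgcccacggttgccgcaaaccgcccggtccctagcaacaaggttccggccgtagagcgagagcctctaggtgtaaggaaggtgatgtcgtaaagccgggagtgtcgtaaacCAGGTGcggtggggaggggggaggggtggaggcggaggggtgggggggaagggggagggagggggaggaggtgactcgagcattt

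The CDH2 sequence (chr18:28177131-28177380), the VIM sequence (chr10:17227991-17228240) and the ZEB2 sequence (chr2:144520120-144520369) held no CAGGTG or CACCTG. The ZEB1 sequence (chr10:31318966-31319215) held 2, one of each reading, but 5 of the 7 ZEB1 entries held none. Of all 11 entries of the 4 genes 2 held at least 1, both of ZEB1, and of 35116 RefSeq promoter windows of this length 17.5% did. CG dinucleotides, the letters of CpG islands, numbered 17 in the CDH2 sequence printed and 4 in the other CDH2 entry (chr18:28036642-28036891). The ZEB1 sequence printed had 14, with 7 to 27 over the 7 entries, the ZEB2 sequence 12 and the VIM sequence 8, beside a median of 11 over all windows. A match in letters is a description of the sequence and shows no binding.

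At the starts themselves, within 2 kb on either side, peaks were few in all lists. H3K27me3 had a peak at 3 of the 7 starts (SNAI2, TWIST1 and ZEB2), where 8.29% of windows of this width over the genome held one. H3K4me2 had a peak at 2 (CDH1 and SNAI2), beside 9.78%. Labelled H2A.Z had one at CDH2, beside 7.07%, and labelled H3K9me3 one at ZEB1, beside 3.29%. H3K27ac and H3K36me3 had none at any of the 7 starts, beside 5.03 and 8.6%. The comparison is with windows placed anywhere, not with gene starts, which carry H3K4me2 and H3K27ac more often. The share of gene starts with a peak was not computed for any list, so whether H3K27me3 at these starts is unusual among gene starts was not tested. With only H3K27me3 peaks wider than the list's median, 1 start kept a peak within 2 kb. Within 5 kb, H3K27me3 reached 5 of the 6 mesenchymal starts, all but ZEB1, and not CDH1, beside 13.1% of windows of that width. H3K4me2 reached 4 of the 7, CDH1 and the mesenchymal VIM, ZEB2 and SNAI2, beside 18.7%. H3K27ac reached CDH1 and VIM, beside 9.21%, and H3K36me3 CDH1 alone, beside 12.2%. Labelled H2A.Z reached CDH2 and TWIST1, also beside 12.2%, and labelled H3K9me3 VIM and ZEB1, beside 7.1%. SNAI2 was the only gene with both H3K4me2 and H3K27me3 within 2 kb of the start, and the closest H3K4me2 and H3K27me3 edges were 993 bp apart there and 470 bp apart upstream of ZEB2.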

How the data were processed

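ChIP-seq libraries of T-47D cells, 1 per mark, were analysed as 6 peak lists deposited by the authors, each with 4 columns (chromosome, start, end and name), so peaks were described by position and width alone. Bowtie2 2.1.0, HOMER 4.2 and the builds hg19 and GRCh37 are named in the submitters' processing notes, and their settings and the use of the input are not given in the sources read here. Depth is unknown, and copy number was not corrected. Starts were converted to 1-based positions and peaks on chromosomes 1 to 22 and X were used. Gene spans in hg19 were taken as defined for the 7 genes, with 20 kb added on each side and the gene start at the 5′ end of the span. The background was all same-length windows laid end to end over 2774.3 Mb, after spans of 1 Mb or more without any peak were taken out. All 7 genes are named. The peak nearest the start and the widest peak are given for some genes and lists, not for all. Genes, flanks and lists were chosen with earlier results of these data known. With no replicates there is no test, so values are descriptions. Counting and coverage were tested on simulated data with 4 checks, all passed. Alternatives were other flanks, start windows, width limits, overlap and merging. Other epithelial, mesenchymal and cell type marker genes were planned and not analysed here, since hg19 positions for them were not used. Python 3.11.15, numpy 2.4.6, pandas 2.3.3 and matplotlib 3.10.9 were used.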

Additional observations from a re-analysis of the deposited data

How the results depend on the processing

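CDH1 minus the median of the 6 mesenchymal genes, in percentage points of window covered, was 10.5 for H3K4me2, 9.78 for H3K27ac, 31.8 for H3K36me3, -1.82 for H3K27me3, -0.094 for labelled H2A.Z and 0.712 for labelled H3K9me3, and no alternative turned a sign. In that order it was 11.1, 10.9, 37.2, -2.03, -0.102 and 0.851 with flanks of 10 kb, and 6.94, 6.82, 22.7, -0.929, -1.97 and 0.202 with 50 kb. Without flanks H3K27ac gave 10.8, H3K36me3 43.4, and H3K27me3, labelled H2A.Z and labelled H3K9me3 0. Keeping only peaks above their list's median width gave 7.84, 7.78, 28, 0, 0 and 1.08. With covered bp over the summed length of the 6 windows, H3K4me2 gave 11, H3K27ac 9.6, H3K27me3 -1.79 and labelled H2A.Z -0.302. Mesenchymal windows with a peak numbered 5 for H3K4me2, 6 for H3K27me3, 3 for labelled H2A.Z and 4 for labelled H3K9me3. They fell to 3, 2, 1 and 2 without flanks, and to 2, 2, 0 and 1 both above the median width and above 0.501 kb. This count over the 6 genes was added after seeing the data. Starts with a peak rose to 4 for H3K4me2, 2 for H3K27ac, 1 for H3K36me3, 5 for H3K27me3, 2 for labelled H2A.Z and 2 for labelled H3K9me3 within 5 kb, and H3K4me2 had 1 within 1 kb. With peaks wider than the median, H3K27me3 kept 1 start, and both labelled lists 0. Windows of the gene's own chromosome were also added after seeing the data. No paired analysis was possible because each mark has 1 library and nothing was tested. With depth unknown, a missing peak does not show that a mark is absent.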
